A study of Mus musculus with 36 samples.

Results

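The mitochondrially encoded mRNAs mt-Nd1, mt-Nd2, mt-Nd4, mt-Nd5, mt-Nd6, mt-Co1 and mt-Cytb were followed in mouse endothelial-derived cells that had been split into nucleus and cytoplasm. They are 7 of the 26400 gene rows of the count table, and 7 of the 24 rows whose symbol starts with mt-. They were taken by symbol. RNA of C1.1 cells and of C166 cells was measured in nuclear and cytoplasmic fractions, in normoxia and after 2h or 24h at 1% oxygen, in 12 groups of 3 libraries each. C166 is a yolk sac endothelial line of the mouse, and C1.1 is a mutant line made from it by CRISPR, a single clone that lacks a mir-466c hairpin in an intron of Sfmbt2. The control of every hypoxia comparison is the same line and fraction in normoxia, and that of every line comparison is C166. A difference between the lines therefore compares 1 clone with its parental line, and these gene counts do not check the deletion itself. The labels do not say whether the 3 libraries of a group came from separate cultures, so the spread behind each p-value may be technical.

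The mitochondrial genome is a small circle that encodes core subunits of the respiratory chain together with the rRNAs and tRNAs needed to translate them inside the organelle. Both of its strands are transcribed as long precursors, from which the tRNAs are cut out and the mRNAs released. mt-Nd1, mt-Nd2, mt-Nd4, mt-Nd5 and mt-Nd6 encode subunits of complex I, which takes electrons from NADH. mt-Cytb encodes cytochrome b of complex III, and mt-Co1 the catalytic subunit of cytochrome c oxidase, complex IV, which passes electrons to oxygen. Most other subunits of these complexes come from nuclear genes and are imported.

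On the GRCm38 build, mt-Nd6 is the single member on the minus strand of chromosome M (14070 to 13552), and the 6 others lie on the plus strand. The plus-strand members are mt-Nd1 (2751 to 3707), mt-Nd2 (3914 to 4951), mt-Co1 (5328 to 6872), mt-Nd4 (10167 to 11544), mt-Nd5 (11742 to 13565) and mt-Cytb (14145 to 15288), none of them with an intron. The mt-Nd6 sequence was 28.1% G and 5.97% C, whereas the others held between 8.0% and 16.1% G. The tail-to-tail neighbours mt-Nd5 and mt-Nd6 share 14 bases. Their last 30 bases are shown because reads over this stretch can belong to either gene when strand is not used, with the shared bases in capitals and each sequence read on its own coding strand.
mt-Nd5: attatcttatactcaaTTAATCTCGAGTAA
mt-Nd6: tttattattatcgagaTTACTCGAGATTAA
The first 30 bases of mt-Nd6 and mt-Co1, the 2 members with enough nuclear counts to be tested for hypoxia within the nucleus, are given to show the base composition on the 2 strands, with the first codon in capitals.
mt-Nd6: ATGaataattatatttttgttttaagttca
mt-Co1: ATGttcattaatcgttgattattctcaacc

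The members had few counts. Total counts ran from 15314724 to 24940907 per nuclear library and from 20745543 to 28667821 per cytoplasmic library, and of these the 7 members together took 54 to 220 in the nucleus and 848 to 2396 in the cytoplasm. As CPM, counts scaled to the library total, these are 2.95 to 11.7 in the nucleus and 39.2 to 92.1 in the cytoplasm. Whether mitochondrial reads had been removed before counting is not given in the sources used here, so the levels below are not read as the amount of mitochondrial mRNA in the cells. The rows were unequally filled. mt-Atp6, mt-Co3 and the 4 plus-strand tRNA rows held at most 1 count in any library, although they are cut from the same plus-strand precursor as mt-Nd1 and mt-Co1. One library stood apart: replicate 1 of C166 cytoplasm in normoxia had 11903 genes with a count, against 16393 and 16712 in replicates 2 and 3, and held 698 counts of mt-Nd1, against 149 and 211. Results that rest on it are given with and without it. The endothelial label was checked in the cytoplasmic libraries: Pecam1 reached at most 10 counts in C1.1 and 3 in C166, Cdh5 at most 2 and 0, Kdr at most 4 and 0, and Tie1 was at 0 in both. Of the other endothelial markers in the table, Eng held 28 to 124 counts in C1.1 and 14 to 84 in C166, Egfl7 49 to 102 and 0 to 70, Flt1 0 to 5 and 10 to 154, Vwf 3 to 26 and 0 to 9, and Esam 0 to 18 and 0 to 5. The smooth muscle actin gene Acta2 held 7942 to 31311 counts in C1.1 and 17710 to 128243 in C166. Of the other smooth muscle genes, Tagln held 389 to 4184 in C1.1 and 1766 to 15848 in C166, and Myl9 2132 to 5745 and 2696 to 20085. Cnn1 held 61 to 187 in C1.1 and 478 to 2844 in C166. Des held 3 to 36 and 0 to 18, and Myh11, the smooth muscle myosin, 0 to 11 and 0 to 5. Their part in the differences between the lines was not tested. In such bulk samples fewer cells of a type and less RNA per cell cannot be told apart.

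Per kilobase of gene, mt-Nd6 was the highest member of the cytoplasm in normoxia, at 34.5 ± 6.80 CPM per kilobase in C1.1 and 57.5 ± 14.7 in C166 (SD, n = 3 each). mt-Nd1 stood at 9.32 ± 1.14 in C1.1 and 15.2 ± 13.8 in C166. In C166 its libraries were at 31.02, 5.57 and 9.06, with a mean of 7.31 without the library that stood apart, and in replicate 2 mt-Co1 was higher, at 8.15. mt-Co1 stood at 4.67 ± 0.229 in C1.1 and 6.0 ± 1.95 in C166, and mt-Cytb at 4.50 ± 0.174 in C1.1 and 4.74 ± 0.456 in C166, neighbours that did not differ beyond their spread. The lowest were mt-Nd2 (1.83 ± 0.833 in C1.1, 3.53 ± 1.79 in C166), mt-Nd5 (1.23 ± 0.187 and 1.13 ± 0.666) and mt-Nd4 (0.860 ± 0.130 and 2.68 ± 2.25), on the same scale. Without that library mt-Nd4 averaged 1.38 and mt-Nd2 2.57 in C166, and mt-Nd6 53.0. The nuclear-encoded complex V subunit Atp5b, over the length of all its annotated exons, had 315 ± 12.9 CPM per kilobase in C1.1 and 309 ± 29.5 in C166 in the same libraries, far above every member.

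**Figure D1:**
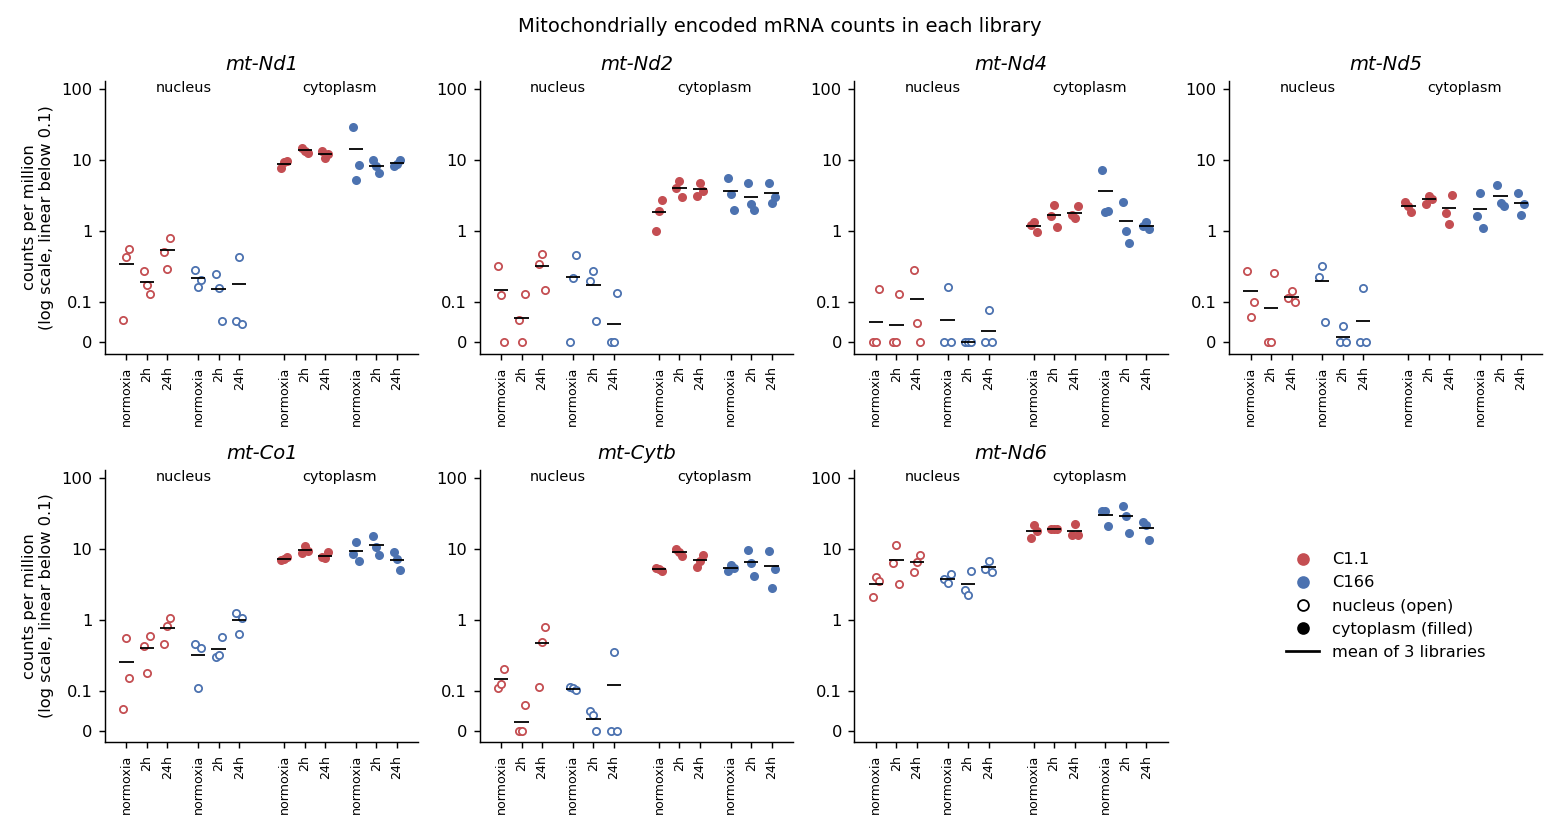
Level of each member, in CPM, in each of the 36 libraries (log axis, linear below 0.1), nucleus as open and cytoplasm as filled points, C1.1 in red and C166 in blue, with the mean of 3 libraries as a bar. In every panel the nuclear points lie below the cytoplasmic points of the same line and time, and mt-Nd6 has the highest nuclear values.

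The nuclear libraries lay below the cytoplasmic libraries of the same line and time for each of the 7 members. In normoxia mt-Co1 had 1, 9 and 3 counts in C1.1 nuclei, against 190, 182 and 216 in C1.1 cytoplasm. In C166 it had 8, 2 and 8 counts in nuclei, against 200, 352 and 163 in cytoplasm. The fractions were far apart in both lines, and the log2 fold changes of mt-Co1 were -4.97 (SE 0.49) in C1.1 and -4.89 (SE 0.47) in C166. mt-Cytb had 2, 2 and 4 counts in C1.1 nuclei, against 146, 133 and 140 in C1.1 cytoplasm, while C166 nuclei had 2 in each library. Its log2 fold changes were -5.19 (SE 0.66) in C1.1 and -5.66 (SE 0.68) in C166. mt-Nd1 had 1, 7 and 11 counts in C1.1 nuclei, against 211, 240 and 275 in C1.1 cytoplasm. In C166 nuclei it had 5, 3 and 4, against 698, 149 and 211 in C166 cytoplasm. Without the library that stood apart, its log2 fold change in C166 in normoxia was -5.09, against -6.07 with it.

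Within the nucleus only mt-Nd6 and mt-Co1 passed the filter on low counts. The other 5 members passed through the cytoplasmic libraries alone and so had to differ between the fractions, and their values are given as a description, with no call. In normoxia and at 2h most nuclear libraries held under 10 counts of mt-Co1. At 2h it had 8, 3 and 9 in C1.1 nuclei, and 6, 8 and 11 in C166 nuclei. It passed mainly through the 24h libraries, so its values in normoxia and at 2h are a description too. In edgeR's quasi-likelihood test over all 36 libraries, mt-Nd6 was called lower in each of the 6 comparisons of nucleus with cytoplasm. Calls were at a Benjamini-Hochberg adjusted p below 0.05 over 16682 genes. mt-Co1 was called lower at 24h in both lines. The log2 fold changes of mt-Nd6 were -2.59, -1.54 and -1.61 in C1.1 in normoxia, at 2h and at 24h, and -3.03, -3.30 and -1.93 in C166. Those of mt-Co1 were -4.97, -4.70 and -3.48 in C1.1, and -4.89, -4.97 and -2.96 in C166. The highest adjusted p of these was 0.000137, for mt-Nd6 in C1.1 at 2h. In normoxia 57.6% of all genes tested were called in C1.1 and 57.9% in C166, at 2h 56% and 54%, and at 24h 54.4% and 54.2%. Genes called lower were 29% of all genes in C1.1 and 26.2% in C166 in normoxia, 28.2% and 25.8% at 2h, and 27.4% and 27% at 24h. The median log2 fold change of all genes lay between 0.02 and 0.17, and between 0.18 and 0.29 when RLE factors replaced TMM, a shift that is small beside the values of mt-Nd6 and mt-Co1. With RLE factors 57.3% to 60.6% of the called genes were higher in the nucleus, against 49.6% to 54.8% with TMM.

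The depth of the nuclear counts sets how well each ratio is known. With the 3 libraries of a group summed and scaled to the library totals, mt-Nd1 in the nucleus was between 1.44% and 4.47% of its cytoplasmic level over the 6 line and time pairs. mt-Nd4 reached at most 5.63%, mt-Cytb 6.96%, mt-Nd2 8.39% and mt-Nd5 9.31%. mt-Nd4 had no count in any of the 3 nuclear libraries of C166 at 2h, against 70, 29 and 14 in cytoplasm. With the floor of 3 counts over the group it was at least 31.4-fold lower there. In C1.1 at 2h a single nuclear count of mt-Cytb against 670 in cytoplasm gave 0.219% (95% exact conditional binomial interval 0.00554% to 1.22%). Such intervals cover counting error only, and the totals of the 2 fractions hold different RNA, so a ratio is relative to each fraction's other RNA.

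**Figure D2:**
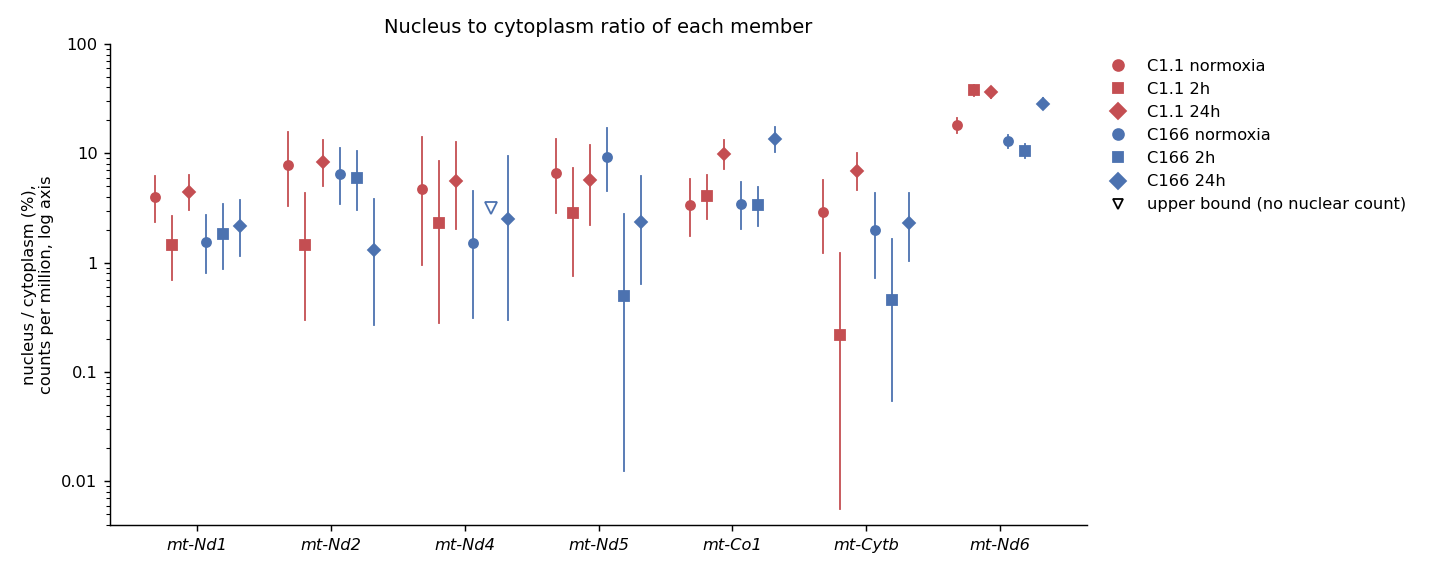
Nucleus to cytoplasm ratio of each member in percent (log axis), from counts summed over 3 libraries and scaled to library totals, with 95% exact intervals for counting error. C1.1 is red and C166 blue. The open triangle, labelled upper bound, is the ratio at a floor of 3 counts where no nuclear count was seen. mt-Nd6 lies between 10.5% and 37.8%, above the other 6 members in every line and time.

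mt-Nd6, the minus-strand complex I subunit, was the least depleted in nuclei. In normoxia it had 39, 64 and 70 counts in C1.1 nuclei, against 397, 548 and 505 in C1.1 cytoplasm. In C166 it had 66, 60 and 87 in nuclei, against 809, 951 and 512 in cytoplasm. Its summed ratio was 18.1% in C1.1 (interval 15.3% to 21.1%) and 12.8% in C166 (11.1% to 14.8%), against 4.12% and 2.98% for the 6 plus-strand members as a sum. At 2h the mt-Nd6 ratio was 37.8% in C1.1 and 10.5% in C166, and at 24h 36.3% and 28.4%. In each of the 6 line and time pairs every other member had a lower ratio, although in 4 of the 36 pairings with another member the counting intervals overlapped.

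The same was seen within libraries, where depth and scaling cancel. mt-Nd6 made up 71.0% to 97.0% of the member counts in the 18 nuclear libraries, against 28.9% to 51.1% in the 18 cytoplasmic libraries, with no overlap. In normoxia its share was 74.3% ± 1.77 in C1.1 nuclei and 40.0% ± 3.72 in C1.1 cytoplasm, and 77.0% ± 1.78 in C166 nuclei and 44.5% ± 6.89 in C166 cytoplasm (SD, n = 3 each). Each of the 6 comparisons gave an exact two-sided permutation p of 0.1, the smallest that 3 against 3 allows, and 0.2 after adjustment over 20 comparisons. The libraries were made with a stranded kit, but whether the counting used strand is not given in the sources used here. Without strand, mt-Nd6 mRNA and RNA copied from the opposite strand cannot be told apart.

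**Figure D3:**
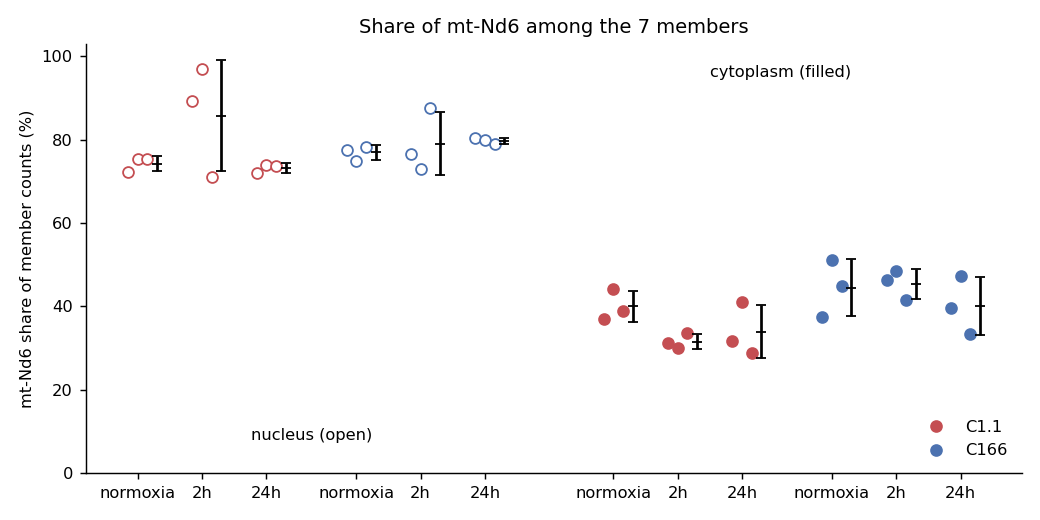
Share of mt-Nd6 in the counts of the 7 members, in percent, for each library, with the mean ± SD of 3 libraries beside the points; nucleus is open, cytoplasm filled, C1.1 red and C166 blue. Every nuclear library lies at or above 71.0% and every cytoplasmic library at or below 51.1%.

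The other mitochondrial rows were read by strand. Minus-strand rows, mt-Nd6 itself and 8 tRNAs, made up 78.8% to 95.8% of all mitochondrial counts in nuclear libraries, against 24.3% to 53.2% in cytoplasmic libraries. The mean of the 8 tRNAs alone was lower in nuclei in each of the 6 comparisons, most often with overlap. They summed to 5.72 ± 0.689 CPM in C1.1 nuclei and 7.38 ± 1.501 in C1.1 cytoplasm in normoxia, and to 3.87 ± 0.426 in C166 nuclei and 12.4 ± 6.83 in C166 cytoplasm (SD, n = 3 each). The fractions overlapped in C1.1 at all 3 times and in C166 at 24h, and did not overlap in C166 in normoxia or at 2h, with nuclei lower. mt-Rnr2, the plus-strand large rRNA, had 1 to 25 counts per nuclear library, so its calls rest on few nuclear counts. It was called lower in the nucleus in all 6 comparisons, at log2 -4.90 (SE 0.57) in C1.1 and -4.70 (SE 0.62) in C166 in normoxia. Of all genes, 25.8% to 29% were called lower over these 6 comparisons. mt-Rnr1, the small rRNA, had at most 2 counts in any nuclear library and so passed the filter through the cytoplasm. In C166 in normoxia its log2 fold change was -2.18 (SE 1.14), given as a description with no call. mt-Tp and mt-Tq, minus-strand tRNAs for proline and glutamine, were called in none. Their log2 fold changes in normoxia were -0.52 (SE 0.44) and -0.11 (SE 0.60) in C1.1, and -0.46 (SE 0.45) and -0.63 (SE 0.62) in C166. Not all minus-strand tRNAs did so: mt-Ts1, a tRNA for serine, was called lower in 5 of the 6 comparisons (not in C1.1 in normoxia). It had 2 to 21 counts per nuclear library. mt-Te and mt-Tn had at most 11 and 6 counts in any nuclear library, and no call is given for them.

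In normoxia the nuclear-retained RNA Neat1 was higher in nuclei by log2 5.11 (SE 0.14) in C1.1 and 4.89 (SE 0.14) in C166. The cytosolic mRNA Gapdh was lower, by log2 fold changes of -0.40 (SE 0.09) and -0.35 (SE 0.09). Per kilobase, Neat1 in C166 averaged 145 CPM in nuclei and 4.62 in cytoplasm in normoxia, and 124 and 13.2 at 24h. In C1.1 it averaged 629 and 16.7 in normoxia, and 506 and 36.5 at 24h. The fractions thus lay closer together for Neat1 at 24h. For Gapdh in C166 they did not (223 and 269, then 515 and 743). The part of this in the 24h ratios of the members was not tested. Of 20 mRNAs for secreted and ER membrane proteins, 18 were called higher in the nuclear fraction in each line in normoxia, with a median log2 of 1.47 in C1.1 and 1.52 in C166, against 0.03 and 0.17 for all genes. In those comparisons 28.6% of all genes in C1.1 and 31.8% in C166 were called higher. The mitochondrial mRNAs and most mRNAs of the ER lay on opposite sides. Of the nuclear-encoded subunits of complexes I to V (82 listed, 77 tested), 71 were called lower and 2 higher in nuclei in each line. Their median log2 was -1.01 in C1.1 and -0.90 in C166. Among all genes 29% in C1.1 and 26.2% in C166 were called lower in nuclei in normoxia. The 5 genes outside the mitochondrial rows whose log2 level followed the mean of the members most closely were Dph3, Gm10275, Rnf141, Sumo3 and Rpl12, with Pearson r from 0.977 to 0.979 over the 36 libraries, which share the contrast of the 2 fractions.

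Few members were called under hypoxia in the cytoplasm. Summed over the 7 members, C1.1 cytoplasm had 44.5 ± 4.89 CPM in normoxia, 59.8 ± 3.51 at 2h and 53.0 ± 3.22 at 24h (SD, n = 3 each). Both hypoxic groups lay above normoxia without overlap, at an exact permutation p of 0.1, the smallest possible, and 0.2 after adjustment over 20 comparisons. C166 cytoplasm had 68.5 ± 22.7, 62.8 ± 23.3 and 48.8 ± 10.2 at the same times, and the groups overlapped. Without the library that stood apart C166 in normoxia averaged 56.7 CPM, from 66.5 and 46.8, which is below the mean at 2h. By gene, none of the 7 was called in C1.1 at 2h (1.95% of all genes were called) or at 24h (36.2%), nor in C166 at 2h (1.34%). In C1.1 at 2h, 4 of the 7 did not overlap normoxia. At 24h 5 of the 7 did not on TMM-scaled values, and 4 as CPM, without mt-Co1. Each of them was a plus-strand member and higher. For a single gene, 3 against 3 without overlap gives an exact permutation p of 0.1. The share of all genes without overlap is not given here, so no rise by strand is read from these counts. The mt-Nd6 log2 fold changes were 0.06 at both times (SE 0.27) and changed sign when single libraries were left out. The largest value that missed the threshold in C1.1 was mt-Nd2 at 24h, with 71, 119 and 97 counts, against 28, 49 and 78 in normoxia, and a log2 fold change of 1.096 (SE 0.47, adjusted p = 0.076, edgeR).

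mt-Nd4 was the single member called in C166 cytoplasm at 24h, where 35.8% of all genes were called. It had 32, 34 and 27 counts at 24h, against 171, 52 and 47 in normoxia, a log2 fold change of -1.64 (SE 0.59, edgeR adjusted p = 0.0354). The 171 counts came from the library that stood apart, without which the value was -0.72 (adjusted p = 0.272). The call was also lost without any 1 of the 24h libraries, at -1.64, -1.72 and -1.56 (adjusted p = 0.0834, 0.0701 and 0.102, edgeR). mt-Nd1 was also highest in that library. It had 225, 222 and 258 counts at 24h, against 698, 149 and 211 in normoxia. Its log2 fold change was -0.69 (adjusted p = 0.164) with that library and 0.32 (adjusted p = 0.262) without it. mt-Nd6 had 648, 554 and 340 counts at 24h, against 809, 951 and 512 in normoxia, and missed the threshold at -0.63 (SE 0.27, adjusted p = 0.0796).

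**Figure D4:**
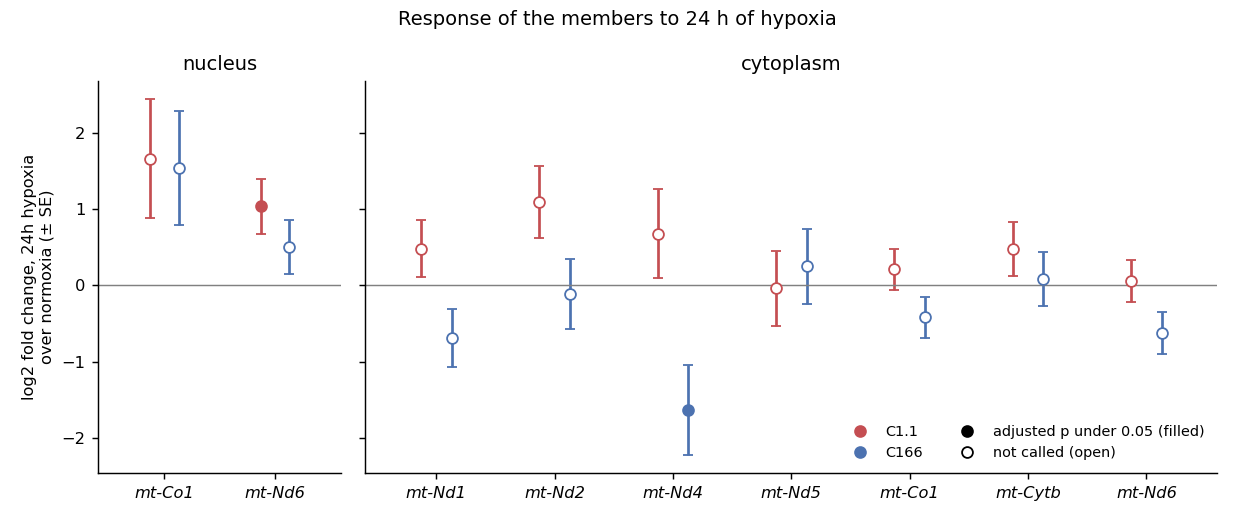
Log2 fold change of 24h hypoxia over normoxia with its SE from the edgeR fit of each fraction, for the members that passed the filter there; C1.1 is red, C166 blue, and filled points are called at an adjusted p below 0.05. The called values are mt-Nd6 in C1.1 nuclei (1.04) and mt-Nd4 in C166 cytoplasm (-1.64), and mt-Co1 is near 1.6 in nuclei of both lines without being called.

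In nuclei mt-Nd6 and mt-Co1 could be tested. mt-Nd6 had 82, 134 and 162 counts in C1.1 nuclei at 24h, against 39, 64 and 70 in normoxia. The groups did not overlap, and mt-Nd6 was called at a log2 fold change of 1.04 (SE 0.36, edgeR adjusted p = 0.0216), where 42.8% of all genes were called. The call was lost without replicate 1 of normoxia (0.80, adjusted p = 0.119) or replicate 3 of 24h (0.82, adjusted p = 0.106). In C166 nuclei it had 102, 167 and 105 counts at 24h, against 66, 60 and 87 in normoxia, also without overlap, and was not called (0.50, SE 0.35, adjusted p = 0.284). There 37.6% of all genes were called. At 2h neither member was called in C1.1 nuclei (3.29% of genes) or in C166 nuclei (2.3%). mt-Nd6 then had a log2 fold change of 1.11 (SE 0.36, adjusted p = 0.0971, edgeR) in C1.1, similar in size to the called value at 24h, and of -0.26 (SE 0.36, adjusted p = 0.927) in C166.

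mt-Co1, the cytochrome c oxidase subunit, had the highest nuclear counts of the plus-strand members at 24h. It had 8, 17 and 21 counts in C1.1 nuclei at 24h, against 1, 9 and 3 in normoxia, and 24, 16 and 24 in C166 nuclei at 24h, against 8, 2 and 8 in normoxia. Neither change was called within the nucleus (1.66, SE 0.78, adjusted p = 0.0898 in C1.1; 1.54, SE 0.75, adjusted p = 0.11 in C166). Its nucleus to cytoplasm ratio was 9.84% at 24h, against 3.34% in normoxia, in C1.1, and 13.5% at 24h, against 3.45% in normoxia, in C166. This shift of the ratio was called in C166 (log2 1.93, SE 0.62, edgeR adjusted p = 0.0468; 8.42% of all genes called) and not in C1.1 (1.49, SE 0.66, adjusted p = 0.161; 11%). The C166 call was lost in 8 of the 12 fits that left out a library in turn: each nuclear normoxia library, nuclear replicates 1 and 3 at 24h, cytoplasmic replicate 2 in normoxia, and cytoplasmic replicates 2 and 3 at 24h. Its values then lay between 1.54 and 2.22. The mt-Nd6 shift was not called in either line (0.99, adjusted p = 0.213 in C1.1; 1.104, adjusted p = 0.143 in C166). The shift was not compared between the lines. When the change at 24h within a fraction was set between the lines, no member was called in the cytoplasm (2.33% of all genes called) or the nucleus (4.75%). In that comparison mt-Nd4 had the largest value, 2.31 in the cytoplasm (adjusted p = 0.157, and 1.39 with adjusted p = 0.284 without the library that stood apart).

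Between the lines, 2 members were called in the cytoplasm in normoxia, where 35.5% of all genes were called. mt-Nd6 had 397, 548 and 505 counts in C1.1, against 809, 951 and 512 in C166, a log2 fold change of -0.83 (SE 0.27, edgeR adjusted p = 0.0219), and -0.74 (adjusted p = 0.0394) without the library that stood apart. The call was lost without replicate 1 of C1.1 (-0.70, adjusted p = 0.0989), replicate 3 of C1.1 (-0.82, adjusted p = 0.0641) or replicate 2 of C166 (-0.71, adjusted p = 0.0782). The groups overlapped as counts and as CPM, and did not overlap after TMM scaling. mt-Nd4 had 34, 34 and 28 counts in C1.1, against 171, 52 and 47 in C166 (-1.71, SE 0.59, adjusted p = 0.0286), and -0.79 (adjusted p = 0.224) without that library. It was not called either without replicate 1, 2 or 3 of C1.1, at -1.75, -1.80 and -1.58. At 2h mt-Nd6 alone was called in the cytoplasm (-0.77, SE 0.27, adjusted p = 0.0345; 34% of genes called), with 474, 462 and 459 counts in C1.1, against 1109, 840 and 352 in C166. The groups overlapped. Without replicate 1 of C166 the value was -0.44 (adjusted p = 0.269), and the call was lost as well without replicate 2 of C166 or any 1 library of C1.1, at -0.76 to -0.77. At 24h no member was called (31.1%).

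In nuclei the lines differed in mt-Nd6 at 2h, with 118, 192 and 49 counts in C1.1, against 52, 57 and 93 in C166. The log2 fold change was 1.01 (SE 0.36, edgeR adjusted p = 0.0263; 40.3% of genes called), and the groups overlapped. Without replicate 2 of C1.1 it was 0.48 (adjusted p = 0.319), and the call was lost too without replicate 1 or 2 of C166 (0.87 and 0.80). No member was called in nuclei in normoxia (40%) or at 24h (39.5%). The nucleus to cytoplasm ratio itself did not differ at the threshold between the lines in normoxia for any member (0.665% of all genes called). The largest such value, 1.57 for mt-Nd4, rested on 3 nuclear counts in each line (adjusted p = 0.734).

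Nuclear genes of the same pathway were tested in the same fits. Of the 77 nuclear-encoded subunits tested, 21 were called lower and 5 higher at 24h in C1.1 cytoplasm, and 28 lower and 3 higher in C166 cytoplasm, where 18.1% and 17.5% of all genes were called lower. Sdha of complex II was among those that rose (0.47, SE 0.08, in C1.1 and 0.41, SE 0.08, in C166), and Uqcrc1 of complex III among those that fell (-0.22, SE 0.08, and -0.27, SE 0.08). In C1.1 nuclei 33 subunits were called higher and 2 lower at 24h (22.3% of all genes higher), and in C166 nuclei 11 higher and 3 lower (19.2% higher). Tfam, which packages mitochondrial DNA and starts its transcription, fell in the cytoplasm at 24h (-0.69, SE 0.09, in C1.1; -0.59, SE 0.09, in C166). Tfb2m, the initiation factor that opens the promoter, fell too (-0.64, SE 0.13, and -0.50, SE 0.13). Polrmt, the mitochondrial RNA polymerase, was not called there (-0.16, SE 0.17, and 0.12, SE 0.17).

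Among 19 tested genes of mitochondrial RNA processing and stability, 11 were called lower and 2 higher in C1.1 cytoplasm at 24h, and 9 lower and 1 higher in C166 cytoplasm, beside the 18.1% and 17.5% of all genes called lower there. Slirp, which with Lrpprc stabilises mitochondrial mRNAs, fell by log2 changes of -0.56 (SE 0.13) in C1.1 and -0.92 (SE 0.13) in C166. Lrpprc was called in C1.1 (-0.20, SE 0.08) and not in C166 (-0.17, SE 0.08). Pnpt1, the mitochondrial polynucleotide phosphorylase that degrades RNA, fell in both (-0.65, SE 0.15, and -0.61, SE 0.15). Bnip3, a hypoxia-induced receptor for mitophagy, rose by log2 4.01 (SE 0.12) in C1.1 cytoplasm and 4.90 (SE 0.13) in C166 cytoplasm.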

How the data were processed

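RNA of 36 libraries was sequenced by the authors from both ends with 50-base reads after depletion of ribosomal RNA, and aligned to GRCm38 (Ensembl 81 genes) by TopHat 2.0.11, which runs Bowtie2 2.2.2. Of further tools, the submitters' processing notes list featureCounts, Cufflinks 2.2.1, Cuffdiff and edgeR. The library kit was a stranded one. The tool that made the counts, its use of strand and any removal of mitochondrial reads are not given in the sources used here. The deposited raw counts per gene symbol were used. The 36 columns of normalized counts and the 48 columns of the authors' 8 comparisons (fold changes and p-values) were not used. Coordinates and bases come from GENCODE vM21 (GRCm38).

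R 4.3.3 with edgeR 4.0.16 was used: filterByExpr, TMM factors and the quasi-likelihood F-test with Benjamini-Hochberg adjustment over all genes tested. Each fraction was fitted with its 18 libraries (14998 genes in the cytoplasm, 15735 in the nucleus), and nucleus was compared with cytoplasm with all 36 (16682 genes). The SE of a log2 fold change is its size over the root of F. Shares were compared by exact two-sided permutation tests. DESeq2 1.42.0, other factors, no filter, fewer libraries, a replicate block and each library left out in turn were the alternatives. The fits were tested on simulated data. Replicates differed by 3.36 to 57.7 times sampling noise, so none is a copy. Named were all 7 members, a list of pathway genes, and the 5 genes with the highest correlation to the members. The members and lists were chosen with earlier results of these data known. The mRNAs mt-Nd3, mt-Nd4l and mt-Co2 have no row among the 24 whose symbol starts with mt-, so they were not analysed here.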

Additional observations from a re-analysis of the deposited data

Results flagged for a closer look

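In C166 the nucleus to cytoplasm ratio of mt-Co1 was higher at 24h than in normoxia, by log2 1.93 (SE 0.62, edgeR adjusted p = 0.0468). This is a test of the difference between 24h and normoxia in this ratio. The call was lost with a replicate block (1.90, adjusted p = 0.107, edgeR), with just the libraries compared (1.98, adjusted p = 0.166) and in 8 of the 12 fits that left out a library. It had 24, 16 and 24 nuclear counts at 24h, against 8, 2 and 8 in normoxia. In the cytoplasm it had 248, 181 and 127 counts at 24h, against 200, 352 and 163 in normoxia. The change was called in neither fraction alone, and the nuclear counts are low. The nuclear RNA Neat1 also lay closer between the C166 fractions at 24h. It averaged 124 CPM per kilobase in nuclei and 13.2 in cytoplasm then, against 145 and 4.62 in normoxia. Whether the mt-Co1 value shares in this was not tested.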

How the results depend on the processing

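mt-Nd6 and mt-Co1 passed the filter within each fraction. Their 12 values of nucleus against cytoplasm kept their sign in all 168 refits under the alternatives run (edgeR or DESeq2 adjusted p up to 0.00317). Of these, the mt-Co1 values in normoxia and at 2h are a description only, since its nuclear counts were low at those times. The hypoxia and line results were less stable. Of the 7 member values called in the other comparisons, 7 lost the call under at least 1 alternative and 0 changed sign, and 36 of 93 values in those comparisons changed sign somewhere. Fitted on just the 2 or 4 groups at hand, the count of called members was 3 for 2h in C1.1 cytoplasm and 2 for 24h there (against 0 and 0), 0 for 24h in C166 cytoplasm (against 1), and for C1.1 against C166 in the cytoplasm 1 in normoxia (against 2) and 2 at 2h (against 1). For the shift of the ratio it was 1 in C1.1 (against 0) and 0 in C166 (against 1). With DESeq2 it was 1 for 24h in C1.1 cytoplasm and 1 for 2h in C1.1 nuclei (against 0 each). With no filter it was 2 for 24h in C166 cytoplasm, namely mt-Nd1 and mt-Nd6, while mt-Nd4 lost its call (-1.64, edgeR adjusted p = 0.0596). It was also 1 for 2h in C1.1 nuclei, 1 for the difference of the responses in the cytoplasm and 2 for the shift in C166. With library totals alone it was 0 for the lines at 2h in the cytoplasm. With the replicate number as a block the shift in C166 had 0 called members, and no other count moved by over 1.5 times, although mt-Nd4 at 24h in C166 cytoplasm was no longer called (-1.46, edgeR adjusted p = 0.058). Whether the numbers pair the samples is not settled. In 0 of 66 pairs of groups did every same-numbered pair correlate above 0.1, but differently numbered libraries were not compared. For nucleus and cytoplasm of the same line and time, r of same-numbered libraries ran from -0.048 to 0.229. Leaving out a library in turn, 16 of 25 counts stayed within 1.5 times, and the others ranged from 0 to 2 (24h in C166 cytoplasm and in C1.1 nuclei), 0 to 4 (lines in cytoplasm, normoxia) or 0 to 1. Without replicate 1 of C166 cytoplasm in normoxia mt-Nd1 reversed to 0.32 for 24h in C166 cytoplasm and to 0.24 for C1.1 against C166, and without replicate 3 of C1.1 nucleus in normoxia the mt-Nd4 difference of the ratio between the lines reversed to -1.82. Over all libraries left out these ranged from -1.09 to 0.32, -1.17 to 0.24 and -1.82 to 4.88. Further uncalled hypoxia values changed sign without single libraries. In C1.1 cytoplasm mt-Nd6 ranged from -0.070 to 0.21 at 2h and -0.16 to 0.21 at 24h, and mt-Nd5 from -0.49 to 0.22 at 24h. In C166 cytoplasm at 24h mt-Nd2 ranged from -0.43 to 0.31, mt-Nd5 from -0.066 to 0.85 and mt-Cytb from -0.48 to 0.39. The causes were not tested. As a percent of the 6 other members, mt-Nd6 averaged 527% in nuclei and 66.6% in cytoplasm, against 78.2% and 39.2% of all members. Nuclear counts of 0 to 16 per library for 5 members limit every nuclear comparison of them.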
